A study of Mus musculus with 38 samples.

Results

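The bone morphogenetic protein (BMP) genes described here are 9 of the 23475 genes of the bulk table. These are the ligands Bmp2, Bmp4 and Bmp7, the Id genes Id1, Id2, Id3 and Id4, and the inhibitory Smads Smad6 and Smad7. The members were chosen by name, with earlier results of these data known. Shares of members set beside those of all genes are therefore descriptions and not independent support. E14 mouse embryonic stem cells (mESCs), an established feeder-free line, were kept in 2i/L, a medium with an inhibitor of MEK, an inhibitor of GSK3 and LIF. They were then exposed to 0.25 µM all-trans retinoic acid (RA) in the basal medium N2B27 for up to 96 h, without the 2i/L additives. Spent medium was replaced after 48 h. The 25 bulk libraries were 2 of mESCs, 9 of unsorted cells between 6 h and 96 h, 4 of PDGFRA- cells at 48 h in CD24 bins (Q1 lowest to Q4 highest), 3 of PDGFRA- cells at 72 h in CD24 bins (T1 lowest to T3 highest), 1 of PDGFRA+/CD24- cells at 72 h, 2 each of sorted ectoderm-like (CD24+/PDGFRA-) and XEN-like (PDGFRA+/CD24-) cells at 96 h, and 1 culture grown from each sorted type. XEN stands for extraembryonic endoderm. For the cultures, sorted cells were replated in N2B27 with EGF and FGF2: the ectoderm-like culture was an adherent line at passage 5 and the XEN-like culture had grown as floating aggregates for 3 weeks. Single cells came from SCRB-seq plates at 9 times (2448 cells above 2000 UMIs) and from SMART-seq2 at 0, 12, 24 and 48 h.

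BMPs are secreted ligands of the TGF-beta family that bind paired serine/threonine kinase receptors, whereupon the receptor-activated Smads enter the nucleus with Smad4. The Id genes are among the best known direct targets of this branch, and their products hold back basic helix-loop-helix factors by binding the E proteins (Tcf3, Tcf4 and Tcf12) those factors need. Smad6 and Smad7 are feedback inhibitors. In mESCs BMP with LIF is known to sustain self-renewal through the Id genes, and in early embryos BMP acts against neural fate.

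The bulk libraries held between 1063809 and 2459424 UMIs (median 1665335), where a UMI is a molecular identifier counted once per gene, and values are given as CPM, the count scaled so that each library adds up to the same total. Marker genes followed the sorts: 11 XEN markers summed to 12050 and 6665 CPM in the sorted XEN-like replicates against 485 and 1779 CPM in the ectoderm-like ones, and 11 ectoderm markers to 611 and 323 CPM against 3270 and 2803 CPM. The sorts also differed in 12 pluripotency markers, which summed to 6267 and 4524 CPM in XEN-like cells, 790 and 432 CPM in ectoderm-like cells and 13436 and 18354 CPM in mESCs. The part of these markers in the differences between the sorted types given below was not tested. The cultures differed from these profiles: 6 mesenchyme markers summed to 3873 CPM in the ectoderm-like culture against 21.1 and 17.4 CPM in the cells it came from, and ectoderm markers to 1552 CPM in the XEN-like culture, whose XEN markers remained at 10098 CPM. In all bulk values, fewer cells of a type and less RNA per cell cannot be told apart. The study's methods call the replicates of mESCs and of both sorted types biological, and the labels do not say which were grown or sorted together.

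The promoters of Id2 and Id3 are shown because these genes reached the highest levels of the members (470 and 689 CPM) and moved together in the libraries from 60 h onwards. Id1 moved with both no less closely, but no promoter sequence was available for Id1, Bmp2, Bmp7 or Smad7. The sequences are the 250 bases before the annotated start, from RefSeq on GRCm38.p6, at chr12:25096093-25096342 on the minus strand for Id2 and chr4:136143572-136143821 on the plus strand for Id3, 5′ to 3′. Bmp4, at chr14:46390670-46390919 on the minus strand, is shown as the ligand with the highest level at 6 h. GENCODE lists 3 transcripts each for Id2 and Id3 and begins both genes upstream of these windows. Both windows thus lie inside the longer gene, and the start used in these cells was not tested. Capitals mark matches, on either strand, to the GC-rich Smad element GGCGCC, to a relative of it that also binds Smads of the BMP branch, GGAGCC, and to the shorter Smad box, spelled CAGAC.
Id2: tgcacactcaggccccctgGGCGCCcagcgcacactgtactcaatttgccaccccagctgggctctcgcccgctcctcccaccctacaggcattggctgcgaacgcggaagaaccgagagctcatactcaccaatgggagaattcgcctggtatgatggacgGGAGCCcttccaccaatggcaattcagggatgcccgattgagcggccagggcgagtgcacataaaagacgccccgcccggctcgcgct
Id3: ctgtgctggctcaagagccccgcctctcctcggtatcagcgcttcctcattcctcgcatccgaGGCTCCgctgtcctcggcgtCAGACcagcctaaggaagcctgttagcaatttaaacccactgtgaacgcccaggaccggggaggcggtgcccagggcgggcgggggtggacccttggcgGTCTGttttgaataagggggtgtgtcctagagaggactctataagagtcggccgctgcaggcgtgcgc
Bmp4: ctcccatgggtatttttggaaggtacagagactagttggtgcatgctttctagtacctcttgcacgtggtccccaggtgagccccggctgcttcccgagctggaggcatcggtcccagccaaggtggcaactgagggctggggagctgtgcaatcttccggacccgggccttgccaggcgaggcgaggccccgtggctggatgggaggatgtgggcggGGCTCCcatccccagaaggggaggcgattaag
The Id2 promoter held the GC-rich element at -231 from the start and its relative at -88. The Id3 promoter held Smad boxes at -167 and -68 and the relative at -187, and the Bmp4 promoter held the relative at -32, with no overlap between matches. Of the members not shown, Id4 held the GC-rich element at -148 and the relative at -13, and Smad6 the relative at -102 and -18. Both genes were low in bulk. Such letters are common: the GC-rich element occurred in 9.54% of 27025 promoter windows of this length, its relative in 25.7% and the Smad box in 42.1%. The 3 windows were 62.8, 62.8 and 63.2% G and C, against a median of 52% over all windows. A match describes the sequence only.

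The ligands behaved differently from each other over the unsorted time course. Bmp4, which in mESC cultures is the ligand usually added with LIF, was present before RA at 15.7 and 22.6 CPM in the mESC replicates, stood at 44.5 CPM (91 UMIs) at 6 h and at 29.5 CPM at 12 h, and then fell to 4.98 CPM at 24 h and 2.42 CPM (4 UMIs) at 36 h. From 48 h to 96 h it read 5.69, 6.61, 9.26, 9.85 and 10.3 CPM. The 6 h and 12 h libraries were thus above both mESC replicates and those from 24 h on below them.

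Bmp2, a ligand with roles in extraembryonic tissues and heart, had no UMI in either mESC replicate and read 0.489, 0, 0.498 and 0 CPM at 6, 12, 24 and 36 h. It then stood at 1.63, 4.80, 4.36, 7.78 and 14.9 CPM (29 UMIs) between 48 h and 96 h. The summed XEN markers rose in the same libraries, from 517 CPM at 48 h to 12297 CPM at 96 h, and their part in the Bmp2 level was not tested. Bmp7, a ligand best known from kidney and eye, had 5.69 and 9.14 CPM in the mESC replicates and between 2.20 and 8.13 CPM afterwards, with no more than 20 UMIs in a library.

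The Id genes, the targets, had a small early and a large late level. Id3 read 50.7 and 13.1 CPM in the mESC replicates, which stand far apart, then 65.5, 26, 11, 6.66 and 47.2 CPM at 6, 12, 24, 36 and 48 h, and 345, 368, 291 and 154 CPM at 60, 72, 84 and 96 h. Id1 read 2.62 and 0.871 CPM, then 17.6, 8.37, 2.49, 3.03 and 4.88 CPM, and then 41.4, 48.0, 41 and 27.7 CPM at the same times. After RA both had their low at 24 to 36 h and their high at 72 h.

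Id2 was not lower at 36 h than at 6 h, unlike Id1 and Id3. It read 3.50 and 2.61 CPM in mESCs, 9.29, 8.37, 6.48 and 12.1 CPM from 6 h to 36 h, 48.4 CPM at 48 h and 191, 238, 204 and 169 CPM from 60 h to 96 h. Id4 was hardly seen: 18 UMIs in all 25 bulk libraries, 0 in 16 of them and at most 4 in any, so no change of Id4 could be measured at this depth.

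Of the inhibitors, Smad7 had its highest levels before RA, at 20.1 and 49.6 CPM in the mESC replicates. It read 14.2, 9.25, 7.97, 3.63 and 2.85 CPM from 6 h to 48 h and 4.80, 8.17, 3.63 and 8.71 CPM from 60 h to 96 h, all below both replicates. Smad6 had 102 UMIs in all and never exceeded 5.29 CPM, its level at 12 h.

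**Figure D1:**
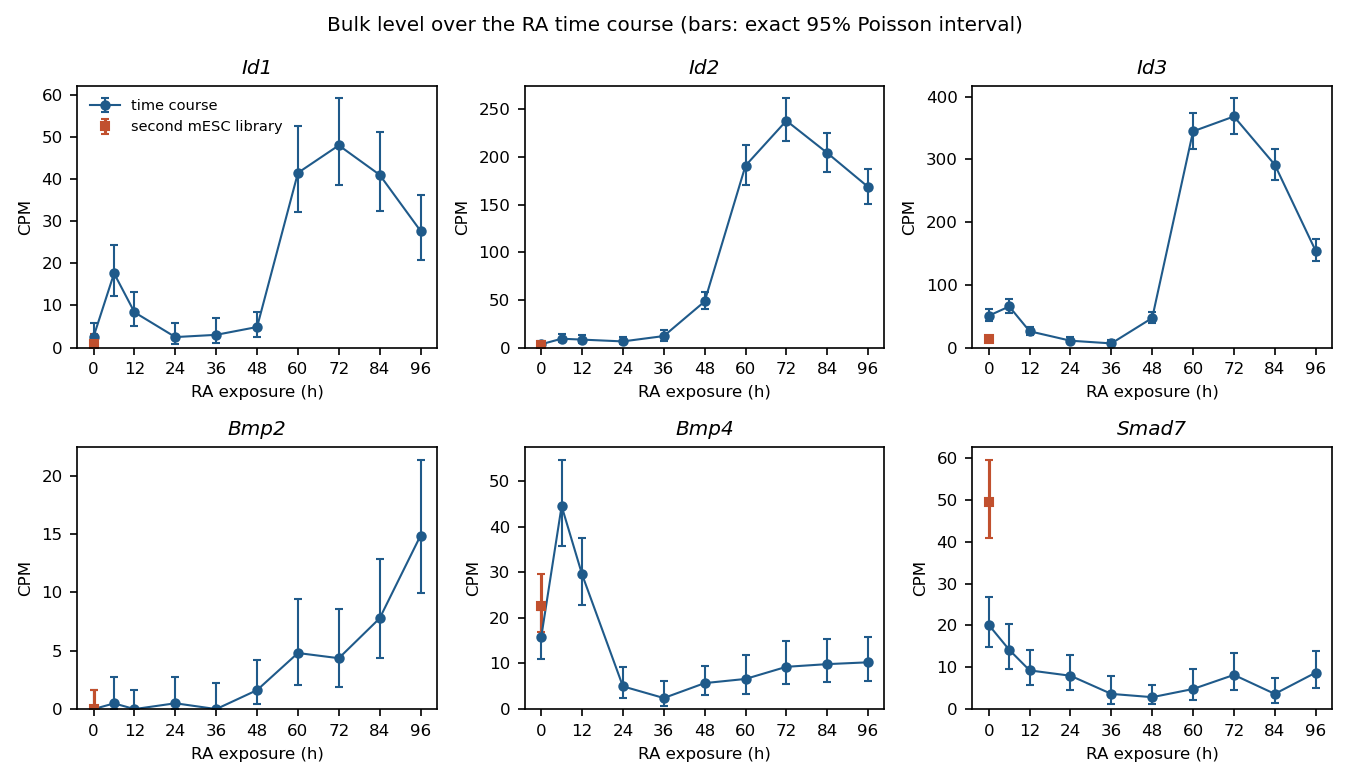
Levels of Id1, Id2, Id3, Bmp2, Bmp4 and Smad7 in the unsorted bulk libraries, in CPM on linear axes, against hours of RA, with each library as a point (squares: mESC replicate 2) and 95% Poisson intervals as bars. Id1 and Id3 are lower at 24 h and 36 h than at 6 h and reach 48.0 and 368 CPM at 72 h, while Bmp4 peaks at 44.5 CPM at 6 h. For Id3 the 6 h interval overlaps that of mESC replicate 1.

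Each time after mESCs was 1 library, so steps in time carry no test, and ratios are given with exact 95% intervals that cover counting error only. A member was counted when the larger side had at least 20 UMIs, and as changed past 2-fold. At 6 h against the pooled mESC replicates all 5 members with enough counts were past 2-fold, where 8.72% of all genes were. Id1 was 10.1-fold higher (4.61 to 25.1), Id3 2.06-fold (1.61 to 2.62) and Bmp4 2.32-fold (1.71 to 3.14), while Bmp7 was 3.03-fold lower (1.18 to 9.94) and Smad7 2.46-fold lower (1.65 to 3.79). Id2, just under the minimum with 19 UMIs, was 3.04-fold higher (1.45 to 6.56). The mESC replicates decide part of this: without replicate 2 only 2 members were past 2-fold, and the Id3 log2 ratio of 1.04 was 0.37 without replicate 2 and 2.33 without replicate 1. RA was added when the 2i/L additives were removed, and no library was made of mESCs in N2B27 alone. In any comparison with mESCs the parts of these changes of medium cannot be told apart.

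Between 6 h and 36 h 4 of 5 members fell past 2-fold, against 18.6% of all genes in either direction. Bmp4 was 18.4-fold lower at 36 h (6.94 to 68.9), Id3 9.84-fold (5.33 to 20.2), Id1 5.82-fold (2.28 to 19) and Smad7 3.91-fold (1.59 to 11.5). Id2 was the exception, with a ratio of 1.30 (0.66 to 2.58).

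Between 48 h and 60 h 3 of 4 members with enough counts were past 2-fold, all higher, where only 4.53% of all genes were past 2-fold in either direction. Id1 was 8.49-fold higher (4.56 to 17.2), Id3 7.31-fold (5.98 to 9.0) and Id2 3.95-fold (3.19 to 4.91). The ligands were too low for the same statement, with 8 against 4 UMIs of Bmp2 and 11 against 14 of Bmp4. Medium was replaced after 48 h, so time under RA and fresh medium cannot be told apart in this step, here or in SCRB-seq.

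At 96 h against mESCs 5 of 7 members were past 2-fold, beside 32.8% of all genes and a median log2 ratio over all genes of 0.29. Id2 was 55.2-fold higher (32.4 to 102), Id1 15.9-fold (7.50 to 38.6), Id3 4.84-fold (3.96 to 5.94) and Bmp2 at least 22.7-fold, set against a floor of 3 UMIs over both mESC replicates. Smad7 was 4.01-fold lower (2.43 to 7.05). Bmp4, at 1.87-fold lower (1.14 to 3.21), stayed inside 2-fold.

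In SCRB-seq the same order appeared in UMIs summed over the cells of each plate. Each time had 137 to 335 cells above 2000 UMIs, with median depths from 3560 to 5069 UMIs. The highest well held 132248 UMIs and no doublet caller was run. Well names were shared by all 9 plates because they are plate positions, and 0 of the 2448 cells had the same counts as a cell of another plate. Id3 had 5, 117, 84, 18, 8, 27, 247, 299 and 98 UMIs over the cells of 0, 6, 12, 24, 36, 48, 60, 72 and 96 h. Per 10000 UMIs this was 0.0265 at 0 h, 0.451 at 6 h, 0.0327 at 36 h and 2.28 (2.03 to 2.56) at 72 h. The early and the late peak of Id3 were both present, with the trough at 36 h between them.

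Id1 had 0, 104, 38, 2, 6, 7, 117, 162 and 36 UMIs at the same times, so its 6 h level was at least 25.2-fold above the 0 h plate at the floor of 3 UMIs. SMART-seq2, described below, did find Id1 in mESCs. Between 48 h and 60 h Id1 was 15.5-fold higher (7.31 to 39.5), Id3 8.51-fold (5.71 to 13.2) and Id2 2.26-fold (1.61 to 3.22). Id2 had 0, 5, 4, 7, 23, 49, 119, 174 and 73 UMIs, with more at 36 h than at 6 h. From 72 h to 96 h Id1 fell 2.50-fold (1.73 to 3.69), Id3 1.69-fold (1.34 to 2.15) and Id2 1.32-fold (1.00 to 1.76).

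After thinning each cell to 2000 UMIs, the share of cells with an Id3 UMI was 0.709% at 0 h, 9.55% at 6 h (22.7% before thinning), 0.599% at 36 h, 33.2% at 72 h (48.5% before thinning) and 27% at 96 h. Shares of this kind limit cells with a UMI, not cells expressing the gene and can include free RNA. No cell type here is known to lack Id3. At 0, 24 and 36 h 2 thinned cells each held an Id3 UMI, so these plates cannot be ranked. Before thinning the share was 1.77% at 0 h and 2.10% at 36 h. Id1 reached 16.6% of thinned cells at 72 h from 0 of 282 at 0 h, which allows up to 1.30%. Id3 UMIs were spread over 114 of 235 cells at 72 h, and no cell held more than 14.

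Among the ligands in SCRB-seq, Bmp4 had 23, 209, 114, 11, 3, 3, 29, 11 and 7 UMIs over the 9 times, a 6.60-fold higher level at 6 h than at 0 h (4.28 to 10.6) and a 65.6-fold lower one at 36 h than at 6 h (22.2 to 321). The share of thinned cells with Bmp4 went from 2.84% at 0 h to 13.7% at 6 h. Bmp2 had 0, 0, 1, 0, 4, 13, 14, 21 and 18 UMIs, late as in bulk. Smad7 had 194 UMIs at 0 h and 110 at 6 h, 2.43-fold lower (1.91 to 3.1), and no more than 15 UMIs from 24 h onwards.

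The assays differed for Id4, which inhibits the same factors as the other Id proteins. SCRB-seq gave it 53 UMIs in 36 of 282 mESCs, or 28.1 CPM over all their UMIs, against 0.437 and 1.74 CPM in the bulk mESC replicates, and then 15, 7, 3, 1, 2, 3, 0 and 14 UMIs. SMART-seq2, which reads whole transcripts, found Id4 above 1 RPKM (reads scaled by transcript length and depth) in 12 of 82 mESCs, 2 of 86 cells at 12 h, 1 of 89 at 24 h and 0 of 82 at 48 h. In both single-cell assays Id4 was thus most often seen before RA.

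**Figure D2:**
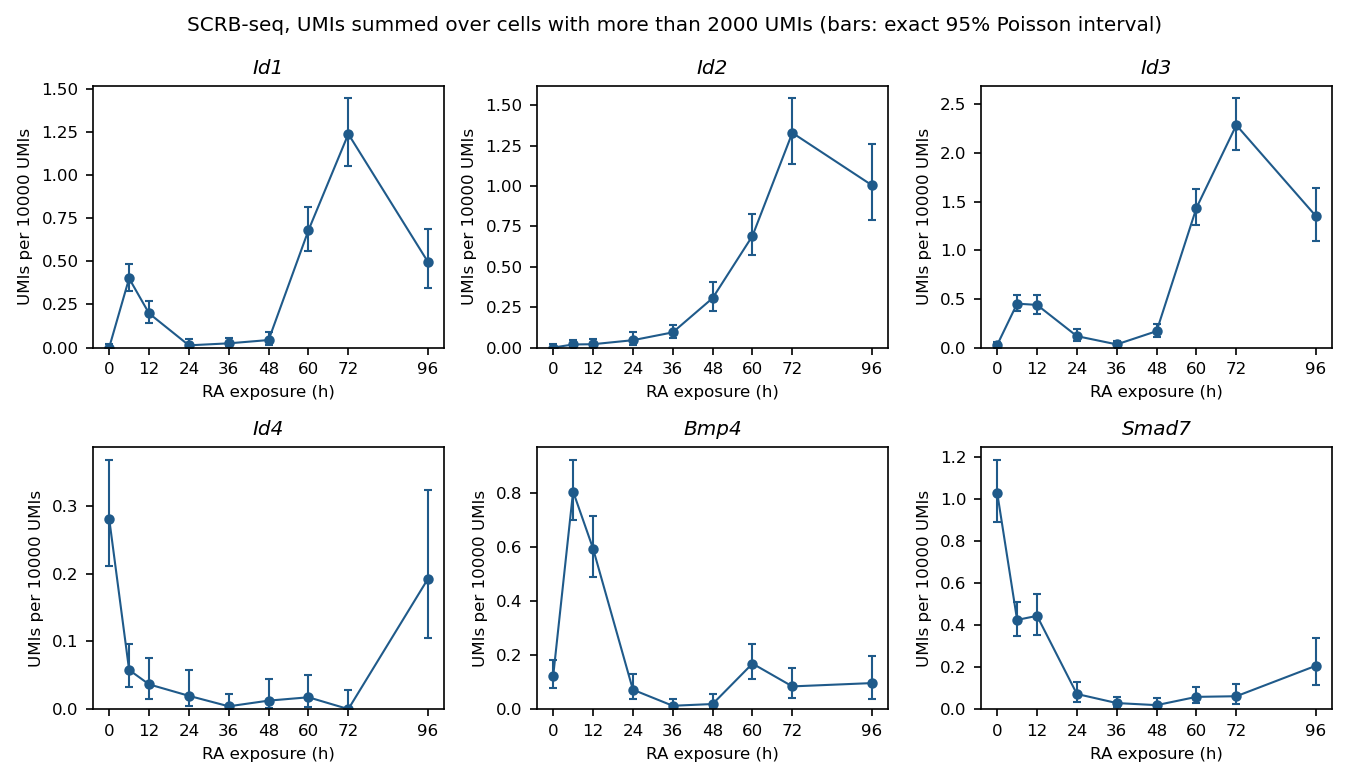
UMIs of Id1, Id2, Id3, Id4, Bmp4 and Smad7 per 10000 UMIs over all SCRB-seq cells above 2000 UMIs, against hours of RA, with exact 95% Poisson intervals as bars. Id3 has peaks at 6 h (0.451) and 72 h (2.28) and Bmp4 peaks at 6 h (0.806).

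In SMART-seq2 the mean over cells covered the first 48 h only. Bmp4 had a mean of 34.2 RPKM (SD over cells 34) at 0 h, 38.6 (41.5) at 12 h, 17.5 (32) at 24 h and 9.27 (24.2) at 48 h, and the share of cells above 1 RPKM was 76.8, 77.9, 49.4 and 22%. SCRB-seq held 0.122 Bmp4 UMIs per 10000 at 0 h and 0.595 at 12 h, a rise that SMART-seq2 did not show. Id3 had its highest early mean before RA, at 69.6 RPKM (SD over cells 72.2), with 52.9 (72.3) at 12 h and 38.9 (71.8) at 24 h, while SCRB-seq held 5 Id3 UMIs in 282 mESCs, and 6 h was not sampled in SMART-seq2. The assays thus differed on Id3 before RA too. Id3 was above 1 RPKM in 78, 66.3, 40.4 and 56.1% of cells, and Id2 in 15.9, 16.3, 12.4 and 45.1%. At 48 h Id2 and Id3 were uneven across cells: the mean of Id2 was 63.3 RPKM with a median of 0 and a highest cell of 1066 RPKM, and the mean of Id3 142 RPKM with a median of 21.8 and a highest cell of 2685 RPKM. Smad7 was above 1 RPKM in 87.8% of cells at 0 h and in 58.1, 40.4 and 15.9% later. The cells of a time came from 1 sample, so these are descriptions.

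Before the 96 h sorts, cells were also split by CD24 and PDGFRA at 48 h and 72 h. At 48 h, with CD24 as the only split of PDGFRA- cells, Id3 read 14.7, 17.1, 32 and 38.5 CPM from Q1 to Q4 and Id2 20.1, 18.6, 19.7 and 44.8 CPM. Both members with enough counts were past 2-fold between Q4 and Q1, Id3 at 2.62-fold (1.58 to 4.48) and Id2 at 2.23-fold (1.44 to 3.55), beside 9.29% of all genes. Relative to Gapdh only 1 of these members stayed past 2-fold. From Q1 to Q4 the ectoderm markers summed to 885, 1035, 1422 and 1560 CPM and the pluripotency markers to 6664, 6600, 5913 and 4292 CPM, and their part was not tested. The unsorted 48 h library lay outside the range of the bins. It was above each bin in Id3 (47.2 CPM), Id2 (48.4 CPM) and ectoderm markers (2437 CPM), and below each in pluripotency markers (3981 CPM). The bins therefore do not show where the Id transcripts of the unsorted library lay, and the reason was not tested.

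At 72 h Id3 read 256, 493 and 689 CPM from T1 to T3 and 10.3 CPM (14 UMIs) in PDGFRA+/CD24- cells. Id2 read 201, 359 and 470 CPM, and 41.2 CPM in the PDGFRA+ gate. Id1 read 50.5, 60.0 and 60.6 CPM, and 5.15 CPM (7 UMIs) in the PDGFRA+ gate. The PDGFRA+ library was therefore below each PDGFRA- library for all 3 genes.

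Between T3 and T1 2 of 3 members were past 2-fold, Id3 at 2.70-fold (2.37 to 3.07) and Id2 at 2.34-fold (2.02 to 2.71), beside 12.3% of all genes, while Id1 had a ratio of 1.20 (0.85 to 1.69). In PDGFRA+ against the pooled PDGFRA- cells 5 of 5 members were past 2-fold, all lower, beside 28.6% of all genes, of which 1688 were lower and 622 higher. Id3 was 46.6-fold lower (27.7 to 85.4), Id1 11.1-fold (5.28 to 27.9) and Id2 8.35-fold (6.38 to 11.1). Bmp4 was also lower, with 1 UMI in PDGFRA+ cells against 42 in the PDGFRA- libraries, but within the CD24 bins it read 11.7, 17.6 and 5.37 CPM from T1 to T3 and did not rise with Id2 and Id3. Smad7 was 2.27-fold lower (0.87 to 7.46). Bmp2 went the other way, at 13.2 CPM in the PDGFRA+ gate against 6.22, 5.29 and 2.30 CPM in T1 to T3, a ratio of 2.90 (1.41 to 5.98) on 18 against 17 UMIs. The summed XEN markers were 4381 CPM in the PDGFRA+ gate and 797, 473 and 356 CPM from T1 to T3. The ectoderm markers were 243 CPM in that gate and 1294, 2048 and 2492 CPM in the bins, and the pluripotency markers 7169 CPM and 4643, 1983 and 1314 CPM. The part of these markers in the Id and Bmp levels was not tested.

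**Figure D3:**
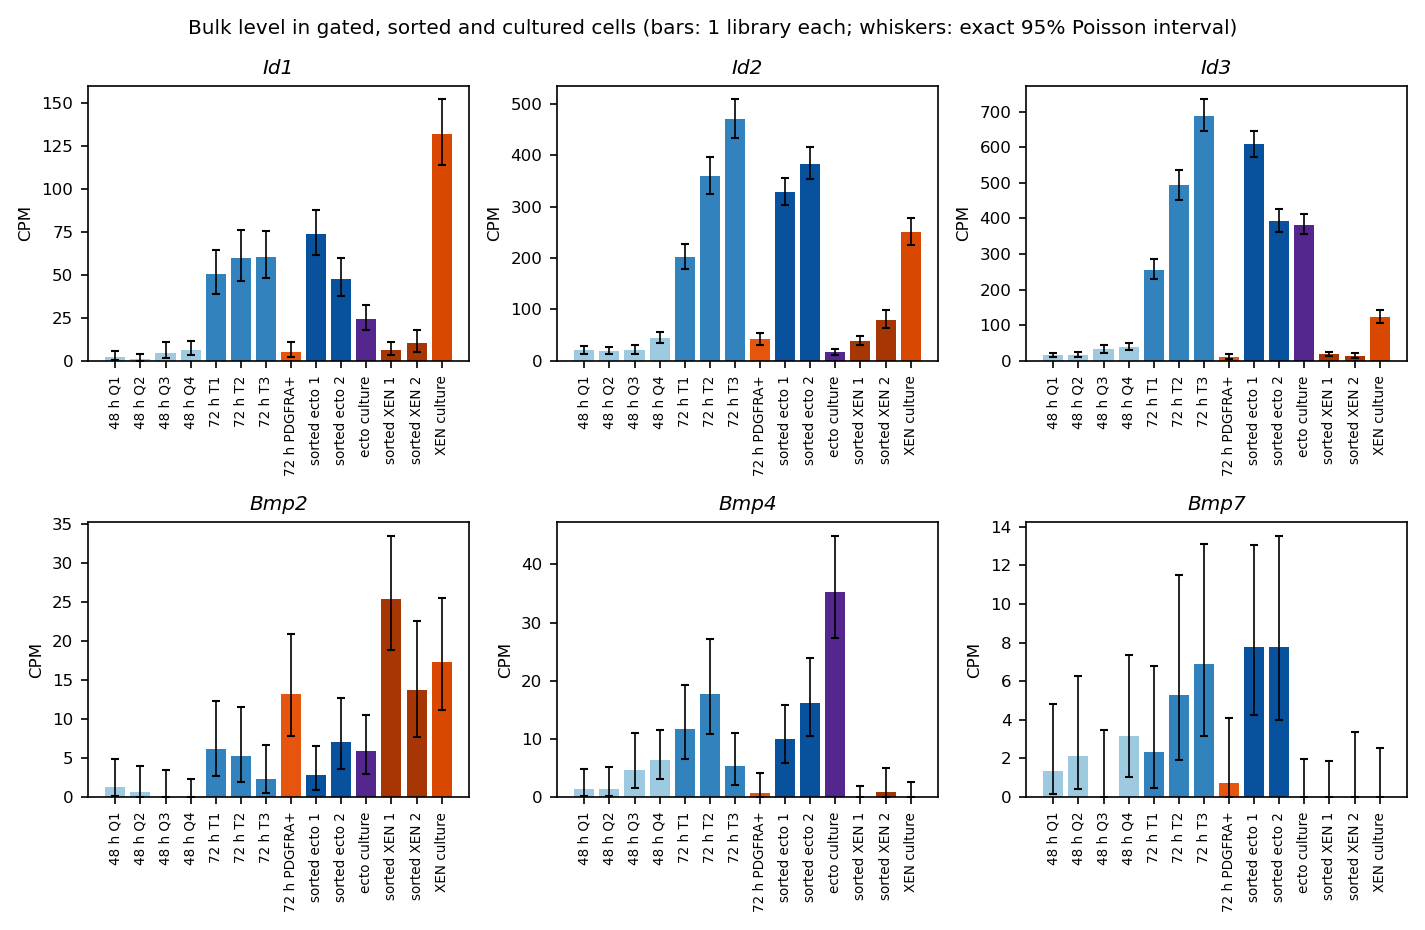
Levels of Id1, Id2, Id3, Bmp2, Bmp4 and Bmp7 in the gated, sorted and cultured bulk libraries, in CPM on linear axes, with 1 bar per library and 95% Poisson intervals as whiskers. Id3 stands at 610 and 393 CPM in sorted ectoderm-like cells, at 17.8 and 13.7 CPM in sorted XEN-like cells and at 123 CPM in the XEN-like culture.

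The 96 h sorts are the comparisons with replicates. In ectoderm-like cells Id1, Id2 and Id3 were all far above mESCs, and Smad7 was below. Id3 read 610 and 393 CPM against 50.7 and 13.1 CPM in mESCs, Id2 328 and 384 CPM against 3.50 and 2.61 CPM, and Id1 73.9 and 47.8 CPM against 2.62 and 0.871 CPM. No library of one group overlapped the other for any of them. How many of all genes showed the same was not counted, so this says nothing particular about the Id genes. By edgeR's quasi-likelihood test with Benjamini-Hochberg adjustment, Id2 rose by a log2 fold change of 6.53 ± 0.50 (SE, adjusted p = 1.63e-05), Id1 by 4.76 ± 0.52 (adjusted p = 1.23e-04) and Id3 by 3.67 ± 0.48 (adjusted p = 4.06e-04). The mESC replicates set part of the size: Id1 rose by 5.66 without mESC replicate 1, and Id3 by 4.88 without replicate 1 and 3.00 without replicate 2, all still called.

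Smad7 read 4.45 and 3.88 CPM in ectoderm-like cells and fell by 3.37 ± 0.54 on the log2 scale (edgeR adjusted p = 0.00136), or by 2.55 without mESC replicate 2. Bmp2, at 2.78 and 7.11 CPM against 0 in both mESC replicates, was at least 7.30-fold higher by summed UMIs at the floor of 3 UMIs per group (edgeR adjusted p = 0.0118, and 0.0806 without ectoderm-like replicate 2). Bmp4, at 10.0 and 16.2 CPM, had a log2 fold change of -0.87 ± 0.46 (edgeR adjusted p = 0.22), and Bmp7, at 7.78 and 7.75 CPM, one of -0.25 ± 0.52 (edgeR adjusted p = 0.789). In all, 5 of 7 members tested were called, 4 higher and 1 lower, beside 19.1% of 8945 genes. Id4 and Smad6 were too low for the test. The median log2 fold change of the 7 was 3.67, and over all genes 0.05.

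In XEN-like cells the Id genes parted. Id2, at 37.6 and 79.3 CPM, was above both mESC replicates and rose by 4.03 ± 0.50 on the log2 scale (edgeR adjusted p = 2.37e-04), or by 3.28 without XEN-like replicate 2. Id3, at 17.8 and 13.7 CPM, lay between the mESC replicates, with a log2 fold change of -1.20 ± 0.52 (edgeR adjusted p = 0.124) that was 0.02 without mESC replicate 1 and -1.86 without mESC replicate 2 (edgeR adjusted p = 0.00396). Id1, at 6.09 and 10.0 CPM, rose by 1.90 ± 0.62 (edgeR adjusted p = 0.0471), or by 2.80 without mESC replicate 1. That Id1 call rests on the setting: the adjusted p was 0.0909 by DESeq2 and 0.0549 when only the groups compared entered the edgeR fit, and it was also above 0.05 without XEN-like replicate 2 (0.199), mESC replicate 2 (0.207) or either ectoderm-like replicate (0.056 and 0.0572).

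Each ligand differed between XEN-like cells and mESCs. Bmp2, at 25.4 and 13.7 CPM, was at least 32.4-fold higher by summed UMIs (edgeR adjusted p = 5.52e-04). Bmp4 had 0 and 1 UMI against 36 and 52, a log2 fold change of -5.82 ± 0.84 (edgeR adjusted p = 5.67e-04) that was -4.36 and -8.44 without XEN-like replicates 1 and 2, and Bmp7 had 0 against 13 and 21, at least 7.58-fold lower (edgeR adjusted p = 0.0024). Smad7, at 10.2 and 6.38 CPM, fell by 2.26 ± 0.50 (edgeR adjusted p = 0.00673, and 0.0679 without mESC replicate 2). In all, 6 of 7 members were called, 3 higher and 3 lower, beside 22.8% of all genes. Their median log2 fold change was -1.20, against -0.06 over all genes. Both comparisons share the mESC libraries.

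Set directly against each other, the sorted types differed in 6 of 7 members, beside 12.7% of all genes, with Bmp2 higher and 5 members lower in XEN-like cells. Id3 was lower by a log2 fold change of -4.87 ± 0.53 (edgeR adjusted p = 6.96e-04), Id1 by -2.86 ± 0.45 (edgeR adjusted p = 0.00275) and Id2 by -2.50 ± 0.38 (edgeR adjusted p = 0.00254). These 3 kept their call in each alternative run, including each left-out library and DESeq2. The Id2 difference was -3.24 without XEN-like replicate 2 and -1.93 without XEN-like replicate 1. Summed over the replicates, Id3 was 31.2-fold lower, Id1 8.24-fold and Id2 6.74-fold.

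Bmp4 differed by -4.94 ± 0.91 (edgeR adjusted p = 0.00545) and Bmp7, with 0 UMIs against 14 and 12, was at least 7.94-fold lower (edgeR adjusted p = 0.00775). Without XEN-like replicate 1 both calls were lost (0.0682 and 0.0765), and that of Bmp7 also without ectoderm-like replicate 1 (0.0544). Bmp2 was higher by 2.10 ± 0.57 (edgeR adjusted p = 0.0362), a call lost in DESeq2 (0.212) and without any of the 4 sorted libraries (0.0541 to 0.313). Smad7 had a log2 fold change of 1.11 ± 0.62 (edgeR adjusted p = 0.284). The median over the 7 members was -2.86, and over all genes -0.06. Scaling by library totals in place of TMM factors moved the median log2 ratio of all genes by 0.36, 0.16 and -0.20 in the 3 comparisons.

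The other genes of the pathway, 50 by name, were mostly too low, and 17 passed the count filter. In ectoderm-like cells against mESCs 3 rose and 1 fell, in XEN-like cells 4 rose and 1 fell, and between the sorted types 2 were higher and 1 lower in XEN-like cells. These 4, 5 and 3 of 17 stand near the 19.1, 22.8 and 12.7% of all genes and say nothing particular about the pathway. In XEN-like cells the largest called rises were those of antagonists, and in ectoderm-like cells that of the receptor Acvr2b. Fst, which encodes the ligand trap follistatin, read 117 and 142 CPM in XEN-like cells, 4.45 and 22 CPM in ectoderm-like cells and 3.94 and 10.0 CPM in mESCs. Fst was higher in XEN-like cells by 4.00 ± 0.62 on the log2 scale against mESCs (edgeR adjusted p = 9.12e-04) and by 3.42 ± 0.60 against ectoderm-like cells (edgeR adjusted p = 0.0045). These were 4.85 without mESC replicate 2, and 2.64 and 5.07 without ectoderm-like replicates 1 and 2.

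Bmper, a secreted modulator that binds BMPs outside the cell, read 21.8 and 25.5 CPM in XEN-like cells, 2.78 and 0.646 CPM in ectoderm-like cells and 0 in both mESC replicates. It was at least 35.4-fold higher than in mESCs by summed UMIs (edgeR adjusted p = 3.12e-04), and higher by 3.79 ± 0.62 on the log2 scale than in ectoderm-like cells (edgeR adjusted p = 0.00413), or by 5.12 without ectoderm-like replicate 1. XEN-like cells, with less Id3 and Bmp4 than ectoderm-like cells, thus had more of both binders, and a relation between these was not tested. Bmp2 was also higher there, though that call did not hold in each alternative run. Twsg1, which acts with chordin on BMPs, rose in ectoderm-like cells by 1.85 ± 0.45 (edgeR adjusted p = 0.0138). In XEN-like against ectoderm-like cells Twsg1 had a log2 fold change of -0.53 ± 0.42 (edgeR adjusted p = 0.464).

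Gdf3, a ligand of pluripotent cells, fell from 123 and 104 CPM in mESCs to at most 3.65 CPM in the sorted libraries, by 5.68 ± 0.44 on the ectoderm-like and 5.78 ± 0.46 on the XEN-like side (edgeR adjusted p = 1.64e-05 and 3.05e-05). Acvr2b, a type II receptor, rose in ectoderm-like cells by 2.46 ± 0.63 (edgeR adjusted p = 0.0183) and was lower in XEN-like than in ectoderm-like cells by a log2 fold change of -2.31 ± 0.66 (edgeR adjusted p = 0.0413). Bmpr2, another type II receptor, named after its values were seen and with few counts, rose in XEN-like cells by 1.82 ± 0.56 (edgeR adjusted p = 0.0362). Smad5, a receptor-activated Smad, rose in ectoderm-like cells by 1.61 ± 0.42 (edgeR adjusted p = 0.0201). Msx2, a homeobox target of BMP, rose in XEN-like cells by 2.94 ± 0.71 (edgeR adjusted p = 0.011). DESeq2 made none of the calls for Twsg1, Acvr2b, Smad5 and Msx2, and each was lost without some libraries, while those for Fst, Bmper and Gdf3 held in each alternative run.

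Of 8 binding partners of the Id proteins or their targets, 3 E protein genes were tested. Tcf12 and Tcf3 rose in ectoderm-like cells, by 1.76 ± 0.46 and 1.34 ± 0.37 on the log2 scale (edgeR adjusted p = 0.0185 and 0.0251), and DESeq2 called neither, nor did edgeR without either ectoderm-like replicate. Tcf12 was also not called without mESC replicate 1 (edgeR adjusted p = 0.0909). Tcf4 read 7.11 and 3.65 CPM in XEN-like cells against 34.5 and 32.3 CPM in ectoderm-like cells and 21.4 and 26.6 CPM in mESCs, lower by a log2 fold change of -2.46 ± 0.41 and -2.30 ± 0.41 (edgeR adjusted p = 0.00331 and 0.00202). Tcf4 and the Id genes were thus all lower in XEN-like than in ectoderm-like cells.

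Single cells showed the same sides without the sort. At 60, 72 and 96 h the SCRB-seq cells of each time were ranked by ectoderm minus XEN marker level, and the 91, 78 and 45 cells at either end (33.3, 33.2 and 32.8% of each time) compared. The sides are ranges of a score, not cell types: 59 of 273, 82 of 235 and 44 of 137 cells lay within 0.1 SD of a cut. At 96 h Id3 had 49 UMIs on the ectoderm-marker side and 11 on the XEN-marker side, a 6.01-fold difference per UMI (3.08 to 12.8), with 45 cells a side and median depths of 3764 and 4436 UMIs. Id2 had 30 against 8 UMIs, 5.06-fold (2.27 to 12.8), and Id1 15 against 7, 2.89-fold (1.11 to 8.39). The size depends on the cut: with smaller sides of 34 cells each Id3 had 39 against 6 UMIs and Id2 26 against 4, both 9.14-fold (3.84 to 26.4 and 3.17 to 36).

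The Id ratios of the sides were smaller at 60 h and 72 h, when the sides also lay closer in XEN markers, as given below. In bulk, the PDGFRA- and PDGFRA+ gates at 72 h differed by no less than the 96 h sorts. Id3 differed 46.6-fold against 31.2-fold, Id1 11.1-fold against 8.24-fold and Id2 8.35-fold against 6.74-fold. A widening with time was not tested. At 60 h Id3 was 2.26-fold higher on the ectoderm-marker side (1.58 to 3.28), Id2 2.39-fold (1.5 to 3.87) and Id1 had a ratio of 1.07 (0.65 to 1.74). At 72 h the ratios were 1.52 (1.10 to 2.10) for Id3, 1.53 (1.03 to 2.30) for Id2 and 2.33 (1.42 to 3.93) for Id1. Bmp2 had 11 of its 13 UMIs in these cells on the XEN-marker side at 72 h and 12 of 13 at 96 h, which was 5.61-fold (1.22 to 52.1) and 8.89-fold (1.32 to 380) higher there per UMI. The XEN markers had a median over cells of 16.4, 27 and 226 per 10000 UMIs on the XEN-marker side at the 3 times, and of 5.18, 7.58 and 29.2 on the other. Cells of a plate are 1 sample, so the intervals describe these plates.

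**Figure D4:**
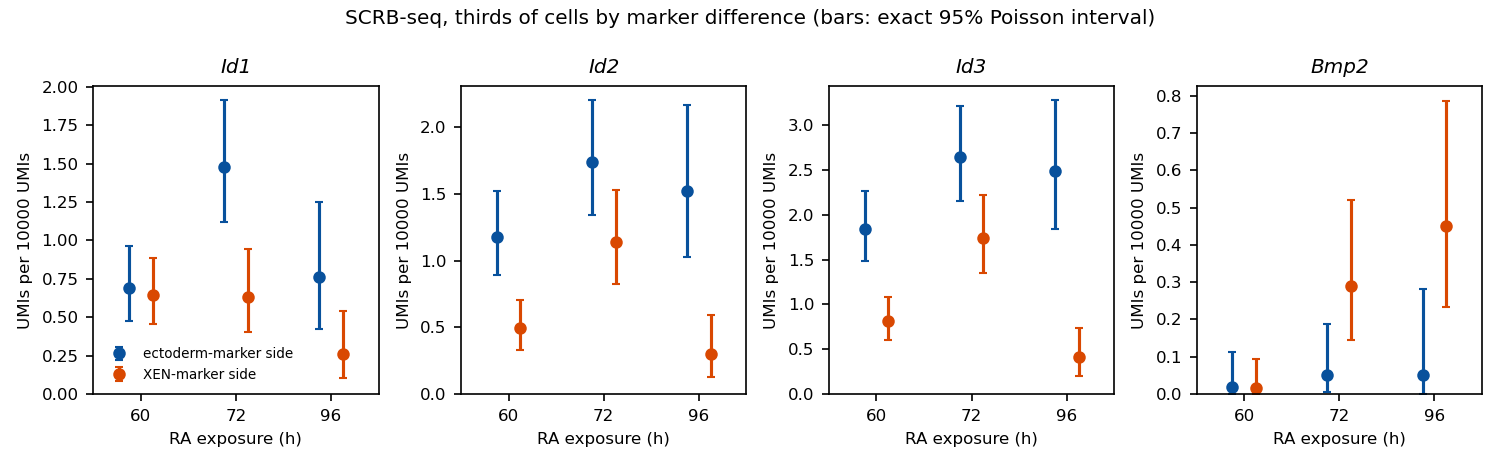
UMIs of Id1, Id2, Id3 and Bmp2 per 10000 UMIs on the ectoderm-marker and the XEN-marker side of the SCRB-seq cells at 60, 72 and 96 h, with exact 95% Poisson intervals as bars. At 96 h Id3 stands at 2.48 and 0.413 and Bmp2 at 0.0507 and 0.450.

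In cultures grown from the sorted cells Id1 and Id2 were higher on the XEN-like and lower on the ectoderm-like side, with 1 culture of each kind and hence no test. In the XEN-like culture Id1 read 132 CPM, Id2 251 CPM and Id3 123 CPM, above both sorted XEN-like replicates, by 17.7-fold (11.4 to 28.5), 4.78-fold (3.96 to 5.79) and 7.57-fold (5.51 to 10.6). Of 5 members with enough counts these 3 were past 2-fold, beside 41.7% of all genes. The ligands did not follow: Bmp2 had a ratio of 0.81 (0.49 to 1.31), and Bmp4 and Bmp7 had no UMI. Smad6 had 7 UMIs in the culture and 0 in the sorted cells, under the minimum of 20. Ectoderm markers went from 611 and 323 CPM in the sorted replicates to 1552 CPM in the culture and pluripotency markers from 6267 and 4524 to 718 CPM, and their part in the Id levels was not tested.

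In the ectoderm-like culture Id2 read 16.6 CPM, 21.3-fold below the sorted cells (14.9 to 31.5), and Id1 24.1 CPM, 2.57-fold below (1.85 to 3.63), though relative to Gapdh Id1 was lower by less than 2-fold. Id3, at 383 CPM, was just below the lower sorted replicate (393 CPM), with a log2 ratio of -0.41 that was 0.46 relative to Gapdh, so its direction depends on the scaling. Bmp4 read 35.3 CPM, 2.75-fold above the sorted cells (1.85 to 4.14), and Bmp7 had 0 UMIs against 26, at least 4.84-fold lower. Here 4 of 5 members were past 2-fold, 1 higher and 3 lower, beside 32% of all genes. Without ectoderm-like replicate 1 only 2 were. The mesenchyme markers given above moved with the ectoderm-like culture, and their part in these values was not tested.

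Over all 25 bulk libraries r between Id genes was higher than r between an Id gene and a ligand, which did not hold in each split of them. The libraries share replicates, times and depth differences and are not independent. Pearson's r on log2(CPM + 1) was 0.87 for Id1 and Id3, 0.85 for Id1 and Id2 and 0.75 for Id2 and Id3 (Spearman's rho 0.82, 0.83 and 0.71). From 0 h to 48 h these 3 were 0.63, 0.24 and 0.23, along the time course 0.91, 0.85 and 0.82, and from 60 h to 96 h without the PDGFRA+ gates 0.90, 0.74 and 0.86. With Bmp2, r was 0.56, 0.64 and 0.35 for Id1, Id2 and Id3 (rho 0.54, 0.60 and 0.30). With Bmp4, r was 0.19, -0.13 and 0.44 (rho 0.22, -0.11 and 0.47).

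The pooled values mixed stages and gates, and these splits were chosen after the values were seen. In the 12 libraries from 60 h to 96 h, Bmp2 had r of -0.85, -0.84 and -0.84 with Id1, Id2 and Id3 (rho -0.87, -0.77 and -0.85), and Bmp4 had 0.91, 0.88 and 0.89 (rho 0.57, 0.60 and 0.49). These libraries fall apart into the 3 sorted or gated on PDGFRA+, with 0 or 1 Bmp4 UMIs each and less Id1, Id2 and Id3 than any of the others, and 9 more. Within the 9, Bmp4 had r of 0.05 with Id1, 0.09 with Id2 and -0.16 with Id3 (rho 0, 0.05 and -0.17), so the relation with Bmp4 did not hold without the PDGFRA+ libraries. The relation with Bmp2 kept its direction within the 9, with r of -0.86, -0.65 and -0.91 (rho -0.80, -0.52 and -0.78), and of -0.71, -0.19 and -0.71 after leaving out the 72 h T3 and 96 h libraries, the farthest in Bmp2. The 9 mix unsorted time points, CD24 bins and sorted ectoderm-like cells, with summed XEN markers between 356 and 12297 CPM, and the part of these in these values was not tested. In the 11 libraries from 0 h to 48 h, Bmp4 had r of 0.56 with Id1, 0.52 with Id3 and -0.52 with Id2, and that with Id1 was 0.02 without the 6 h and 12 h libraries. Along the unsorted time course alone (10 time points), Bmp2 had r of 0.80, 0.92 and 0.79, and Bmp4 0.22, -0.25 and 0.21. The XEN-like culture combined a high Id1 level with no Bmp4 UMI.

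**Figure D5:**
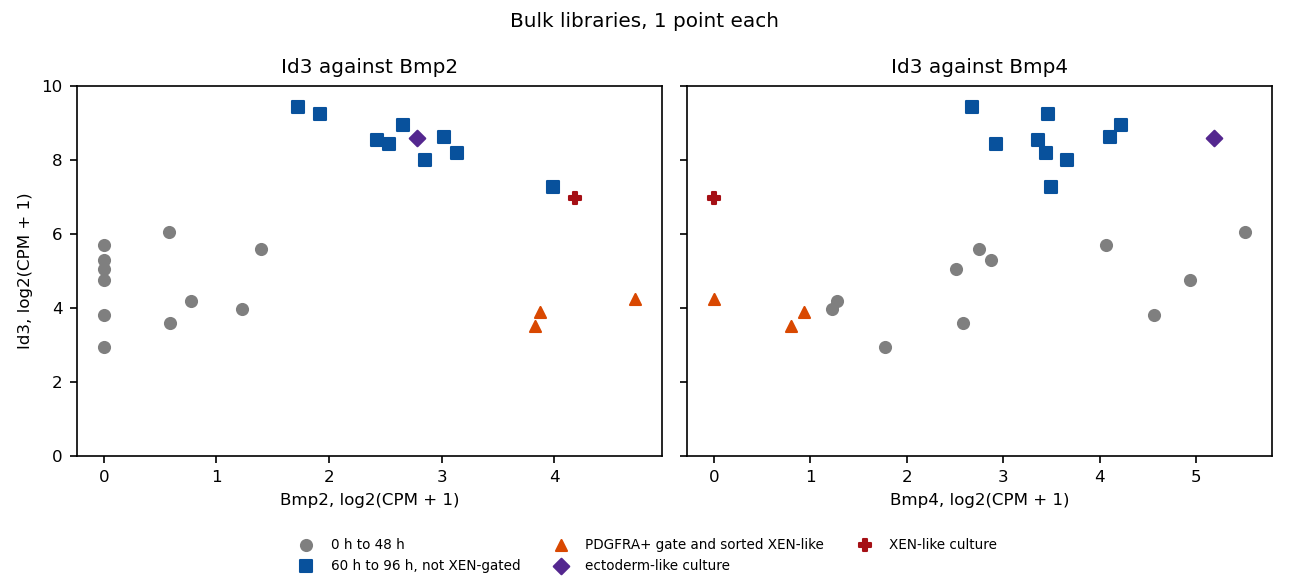
Id3 against Bmp2 and against Bmp4 in the 25 bulk libraries, each axis in log2(CPM + 1), with 1 point per library and colours and shapes for the kind of library. In the 9 libraries of 60 h to 96 h outside the PDGFRA+ gates, Id3 is lower where Bmp2 is higher (r = -0.91) and shows little relation with Bmp4 (r = -0.16), while the 3 PDGFRA+ libraries lie low in both Id3 and Bmp4.

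Among 5950 genes with at least 500 UMIs in all bulk libraries, those most like the members were named by r over the 25 libraries. For Id1 they were Ccnd2 (0.89), Id3 (0.87) and Id2 (0.85), for Id2 Tspan3 (0.95), Ccdc50 (0.93) and Fzd3 (0.91), and for Id3 Id1 (0.87), Crabp1 (0.85) and Zfp266 (0.84). For Bmp4 they were Sfrp1 (0.84), Ifitm3 (0.83) and Ccnd1 (0.82). Id1 and Id3 therefore named each other, and Id2 named neither. Gm15217, annotated on the strand opposite Bmp4, had 13 UMIs in all libraries, and A330033J07Rik, opposite Id4, had 1.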

How the data were processed

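Expression was measured in mESCs and RA-exposed cells by bulk 3′ RNA-seq with molecular identifiers, by SCRB-seq and by SMART-seq2. The bulk and SCRB-seq values are counts: the authors aligned reads with BWA 0.7.4 to mouse RefSeq transcripts (mm10) and counted a UMI a single time for each gene in a library or well. The SMART-seq2 values are RPKM that the authors deposited from TopHat and Cuffnorm, on cells they had filtered by reads; 10206 values with a decimal comma, none of 1 or more, were read as decimals. The depth is given in the report.

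Groups came from the labels. Members and gene lists were chosen with earlier results of these data known. Bulk genes with duplicated or damaged names were left out, and 23475 remained. The sorted groups and mESCs (2 libraries each) entered a single edgeR 4.0.16 quasi-likelihood fit (R 4.3.3, TMM factors, default count filter, 8945 genes tested, calls at an adjusted p under 0.05), tested on simulated data. A permutation test of 2 against 2 libraries cannot give a p below 0.333. Comparisons with 1 library used ratios of counts to library totals with exact 95% intervals, a minimum of 20 UMIs on the larger side and a floor of 3 counts. SCRB-seq wells above 2000 UMIs were kept. Pathway genes were named when called, provided each library of the higher group held 10 counts or more; the 3 genes most alike were taken by Pearson's r on log2(CPM + 1). Alternatives were DESeq2 1.42.0, other scalings, filters, left-out libraries and the replicate number as a block. Python 3.11.15 with numpy 2.4.6, scipy 1.17.1 and pandas 2.3.3 was used.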

Additional observations from a re-analysis of the deposited data

Results flagged for a closer look

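Id1 and Id2 differed in opposite directions between the cultures and the sorted cells they came from, and for Id3 the direction depends on the scaling. The log2 ratio of culture to sorted cells was -1.36 for Id1 in the ectoderm-like lineage and 4.14 in the XEN-like lineage, -4.42 and 2.26 for Id2, and -0.41 and 2.92 for Id3. These values stand out because the culture library lay below both sorted libraries in the ectoderm-like lineage and above both in the XEN-like lineage. The difference was not tested, since each culture is 1 library, and for Id3 the ectoderm-like culture (383 CPM) was close to the lower sorted replicate (393 CPM), with a log2 ratio of 0.46 relative to Gapdh. Relative to Gapdh Id1 and Id2 stayed lower in that culture, Id1 by less than 2-fold.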

How the results depend on the processing

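Of 556 alternative log2 fold changes of members and pathway genes, 488 kept their direction and side of the threshold, 48 lost and 12 gained a call, and 8 turned in sign, none of them called. By DESeq2, 1094 genes were called in ectoderm-like cells against mESCs and 707 between the sorted types, against 1707 and 1135 in edgeR. Leaving out a library gave 862 to 1748 genes for ectoderm-like and 1265 to 1953 for XEN-like cells against mESCs and 262 to 1370 between the sorted types, where 3 to 6 members stayed called. With the replicate block, 2159, 2512 and 1509 genes and 5, 7 and 6 members were called, with Id3 gained in XEN-like cells against mESCs (edgeR adjusted p = 0.0475). The labels do not say that numbers pair samples; deviations of same-numbered libraries correlated at 0.104, 0.0262 and 0.353.

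With a library left out, the sign turned for 7 uncalled values. Against mESCs in XEN-like cells, Id3 ranged from -1.86 to 0.019, Acvr2b from -0.39 to 0.94 (-0.31 without XEN-like replicate 2) and Tcf12 from -0.35 to 1.24. In ectoderm-like cells Bmp7 ranged from -0.60 to 0.15, Fst from -1.01 to 1.42 and Tcf4 from -0.036 to 0.34, and between the sorted types Gdf3 from -0.78 to 0.68. With a minimum of 50 UMIs, 3 members were past 2-fold at 6 h, 2 between 6 h and 36 h and 3 in PDGFRA+ cells. Relative to Gapdh 1 was in the 48 h bins. Left-out libraries gave 2 to 5 members at 6 h and 2 to 4 in the ectoderm-like culture. For r over all libraries, the split by time added after seeing the data gave -0.85, -0.84 and -0.84 with Bmp2 and 0.91, 0.88 and 0.89 with Bmp4 for Id1, Id2 and Id3 from 60 h to 96 h, -0.86, -0.65 and -0.91 with Bmp2 and 0.094 (Id2) and -0.16 (Id3) with Bmp4 once the PDGFRA+ gates were left out, and -0.090 (Id1 and Bmp2), 0.56 (Id1 and Bmp4) and -0.52 (Id2 and Bmp4) up to 48 h. The causes were not tested. Bmp2 in ectoderm-like cells against mESCs fell under the count filter when only those groups entered the fit. Depth limits Id4, Smad6, Bmp2 and Bmp7 most.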
